A study of Mus musculus with 8 samples.

Results

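The Oas family comprises the genes of the oligoadenylate synthetases and their relatives. Its 8 members described here are Oas1a, Oas1b, Oas1c, Oas1g, Oas2, Oas3, Oasl1 and Oasl2, taken by name from the 55376 genes of the deposited count table. All 8 were found, and all 8 were among the 14382 genes tested. Polyadenylated RNA was counted in dendritic cells, which take up microbes and present their antigens to T cells, obtained from mouse bone marrow and kept overnight with a killed (heat-inactivated) Prevotella species. The 2 groups were cells given P. melaninogenica (PM) and cells given P. heparinolytica (PH), with 3 samples each, named by their sample ids as replicates 1, 3 and 4. The labels name no mouse strain, age, sex or genotype. There were no unstimulated cells, so every difference below is PM against PH.

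Oligoadenylate synthetases are enzymes that bind double-stranded RNA, a sign of viral infection, and then link ATP into short oligoadenylates. The oligoadenylates act as second messengers of an antiviral response that breaks down RNA and so stops protein synthesis. The genes are transcribed at a low level at rest and are induced by type I interferon, whose receptor activates ISGF3, a complex that contains Stat2 and Irf9. ISGF3 binds a DNA element called ISRE near the start of its target genes. In mouse, Oas1a, Oas1g, Oas2, Oas3 and Oasl2 encode active synthetases. Oas1b, known for resistance to flaviviruses and truncated in many laboratory strains, Oas1c and Oasl1 encode proteins without that activity, and Oasl1 is known to block translation of Irf7 mRNA.

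All 8 genes lie on chromosome 5 (GRCm38, coordinates of the deposited table) in 2 clusters. Oasl2 (114896936 to 114912234, plus strand) is followed by Oasl1 (114923240 to 114937915, plus). The other cluster runs from Oas2 (120730333 to 120749853, minus) and Oas3 (120753098 to 120777661, minus) through Oas1c (120800194 to 120812514, minus), Oas1b (120812635 to 120824163, plus) and Oas1g (120876142 to 120887582, minus) to Oas1a (120896256 to 120907521, minus). Oas1c and Oas1b are read in opposite directions from starts 121 bases apart. RefSeq promoter windows (build GRCm38.p6, 250 bases before to 50 after a start) were at hand for 6 members, Oas1a, Oas1c, Oas1g, Oas3, Oasl1 and Oasl2. They are shown for the members whose window holds the letters of the ISRE core, searched on both strands as GAAA, then 2 bases of any kind, then GAAA, with matches in capitals, and for Oasl2, the member with the largest difference, whose window holds none.
Oas1a (chr5:120907476-120907775, minus strand): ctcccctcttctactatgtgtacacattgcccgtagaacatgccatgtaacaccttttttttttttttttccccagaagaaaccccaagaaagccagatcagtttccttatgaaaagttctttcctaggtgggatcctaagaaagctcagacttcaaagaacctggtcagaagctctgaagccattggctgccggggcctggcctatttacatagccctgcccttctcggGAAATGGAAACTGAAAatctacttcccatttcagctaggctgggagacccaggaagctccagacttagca
Oas1g (chr5:120887564-120887863, minus strand): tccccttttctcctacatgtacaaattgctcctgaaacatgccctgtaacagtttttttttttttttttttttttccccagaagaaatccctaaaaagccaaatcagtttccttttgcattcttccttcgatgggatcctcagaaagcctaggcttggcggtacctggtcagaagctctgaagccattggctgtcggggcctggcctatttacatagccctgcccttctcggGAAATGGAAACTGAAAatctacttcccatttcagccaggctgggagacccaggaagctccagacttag
Oas1c (chr5:120812465-120812764, minus strand): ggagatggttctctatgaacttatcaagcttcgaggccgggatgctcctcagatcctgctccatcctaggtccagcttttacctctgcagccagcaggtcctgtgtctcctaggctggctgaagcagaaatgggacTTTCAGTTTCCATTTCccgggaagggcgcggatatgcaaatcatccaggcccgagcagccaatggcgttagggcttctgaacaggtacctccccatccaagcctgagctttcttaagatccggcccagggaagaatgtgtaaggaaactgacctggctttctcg
Oas3 (chr5:120777610-120777909, minus strand): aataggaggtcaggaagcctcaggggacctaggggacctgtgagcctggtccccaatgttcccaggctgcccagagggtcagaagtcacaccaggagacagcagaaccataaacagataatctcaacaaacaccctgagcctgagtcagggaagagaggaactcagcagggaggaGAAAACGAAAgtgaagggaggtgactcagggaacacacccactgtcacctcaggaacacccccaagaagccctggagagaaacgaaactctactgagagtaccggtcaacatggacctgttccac
Oasl2 (chr5:114896684-114896983, plus strand): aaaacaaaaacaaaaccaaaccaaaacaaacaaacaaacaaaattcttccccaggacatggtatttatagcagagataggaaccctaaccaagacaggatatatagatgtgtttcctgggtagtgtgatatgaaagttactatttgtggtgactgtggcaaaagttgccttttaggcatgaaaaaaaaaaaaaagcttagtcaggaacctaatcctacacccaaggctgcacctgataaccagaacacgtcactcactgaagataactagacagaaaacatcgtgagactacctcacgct
The core was present in 4 of the 6 windows, against 1131 of all 32851 windows of the same length (3.44%). It was also present in 48 of the 178 genes lower with PM that had a window (27.0%), a list that includes members. Counted by gene in the same way, the core was in 418 of the 10618 tested genes with a window (3.94%). It was in 2 of the 74 genes higher with PM that had a window (2.7%). In Oas1a and Oas1g, 2 overlapping matches formed the same 16 letters, GAAATGGAAACTGAAA. Read on the plus strand, the Oas1c window held these 16 letters too, from 120812613 to 120812628. That stretch lies 7 bases before the start of Oas1b, in the direction of Oas1b, and 99 bases before the start of Oas1c, in the opposite direction. In Oas1a it lay 9 bases, and in Oas1g 34 bases, before the start given in the deposited table. Of the 32851 windows 7 held the 16 letters, those of these 3 genes and 4 windows of Apol9a and Apol9b. The windows of Oasl1 and Oasl2 had no match, which says only that these letters are not in them. The interferon-gamma element GAS, searched as TTCNNNGAA, was in the window of Oas1a alone among the 6, and in 8.3% of all windows. Counted by gene, GAS was in 28 of the 178 genes lower with PM (15.7%) and in 881 of the 10618 tested genes (8.3%). Of the 74 genes higher with PM, 3 (4.05%) held it.

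Total counts ranged from 21192990 to 38231719 in PM samples and from 11624367 to 40233148 in PH samples, so the low counts of Oas1b, Oas1c, Oas1g and Oas2 carry the largest counting error. PH replicate 3 was the shallowest and had the highest level of the predicted gene Gm42418, at 4029 CPM (counts scaled to the size of each library) against 878 to 1496 CPM in the other 5 samples. The columns of PM replicate 1 and PH replicate 3 each match 2 libraries, from run 1 and run 2, so runs could not be compared. Dendritic cell genes were unevenly expressed. H2-Ab1, an MHC class II chain, was at 732 to 790 CPM with PM and 743 to 891 CPM with PH, and the migration receptor Ccr7 at 3487 to 4275 and 3672 to 4447 CPM, while Clec9a was at 0.866 to 1.43 CPM with PM and 0.328 to 0.572 CPM with PH, Xcr1 was below 1 CPM, and Cd209a was at 0 in all samples. The macrophage marker Adgre1 was at 420 to 609 CPM with PM and 416 to 635 CPM with PH. Of 13 dendritic cell markers 11 were tested and 0 passed (3 lower and 1 higher with the sample id as a block). Their summed level was 9999 to 11960 CPM with PM and 10259 to 12469 CPM with PH. Of plasmacytoid dendritic cell markers, cells known for strong interferon production, Siglech had 0 counts in all samples but 1 count in PH replicate 4. Their list of 7 summed to 42.8 to 43.3 CPM with PM and 48.5 to 52.2 CPM with PH, with Tcf4 most of it, and 0 of 5 tested passed (1 lower with the block). Macrophage (5 of 8 tested, 1 higher), neutrophil (7 of 8, 1 lower), T and NK cell (7 of 10, 0 passing), B cell (5 of 5, 0 passing) and stromal (6 of 6, 1 lower) markers had summed levels that overlapped between the groups. With the block, 1 macrophage marker was lower and 1 higher. Neutrophil markers then had 2 lower, and T and NK cell markers 1 lower, while the B cell and stromal counts were unchanged. The part of any of these cell types in the results below was not tested.

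Of the 8 Oas genes, 6 fell in PM cells relative to PH cells and 0 rose. The 6 were Oasl2, Oas2, Oas3, Oasl1, Oas1g and Oas1a, with levels in PM cells at 17.9% (Oasl2) to 47.5% (Oas1a) of those in PH cells. Over all genes tested, 236 (1.64%) were lower and 0.702% higher with PM (edgeR quasi-likelihood test, Benjamini-Hochberg adjusted p of 0.05 over 14382 genes). That count of 236 was 132 without PM replicate 3, 121 without PM replicate 4 and 107 without PH replicate 4. The count of 101 genes higher with PM was between 26 and 56 without any 1 of PM replicates 3 and 4 and PH replicates 1, 3 and 4. The median log2 fold change of the 8 members was -1.56, against 0.01 for all genes tested. In 7 of the 8 every PM sample was below every PH sample, as in 9.28% of all genes, and in 0 was every PM sample above every PH sample, as in 10.1% of all genes. With the sample id as a block 7 members were lower, against 8.27% of all genes lower and 7.0% higher. These counts describe the members and carry no test of their own. In such bulk samples, fewer cells expressing a gene and less RNA per cell cannot be told apart. CPM values below use TMM scaling, a correction of the library totals, and are in the order of replicates 1, 3 and 4.

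**Figure D1:**
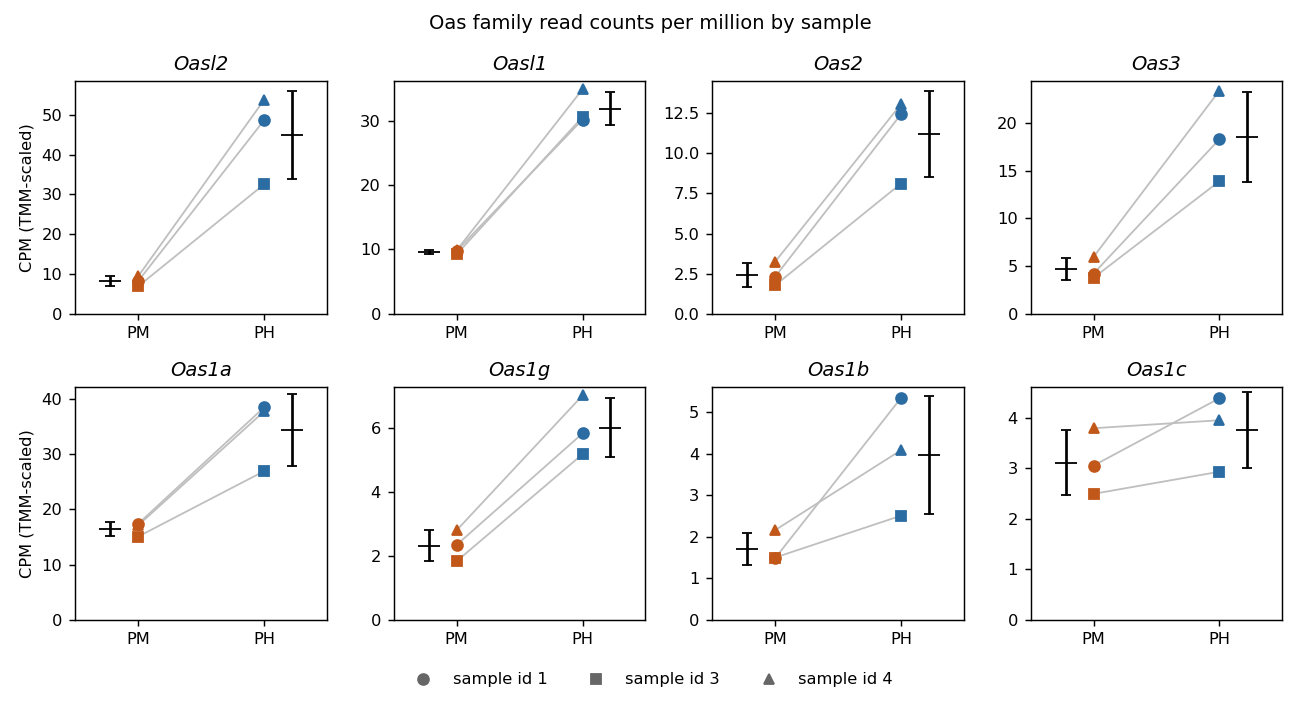
CPM of each Oas gene in each sample, PM left and PH right in every panel, on axes that start at 0 and differ between panels. Symbols are sample ids, grey lines join the samples of one id, and black bars are means ± SD (n = 3 each); only for Oas1c do the 2 groups overlap.

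Oasl2, the active synthetase that carries ubiquitin-like domains, had the largest difference of the family. It was at 8.17, 6.86 and 9.37 CPM in the PM samples, against 48.7, 32.6 and 53.8 CPM in the PH samples. All 3 PM samples were far below the lowest PH sample, replicate 3. The log2 fold change was -2.48 ± 0.19 (SE, adjusted p = 5.6e-04 by edgeR), the fifth largest fall of all genes tested. Oasl1, its neighbour and the inhibitor of Irf7 translation, was at 9.75, 9.22 and 9.83 CPM with PM and 30.2, 30.6 and 34.9 CPM with PH. Relative to their means these values had the narrowest spread of the family, at 9.60 ± 0.329 CPM with PM and 31.9 ± 2.61 CPM with PH (SD, n = 3). Its log2 fold change was -1.74 ± 0.09 (adjusted p = 6.6e-05), the smallest adjusted p of the 8 members.

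The 2 neighbours changed by unequal amounts within the same libraries. The log2 ratio of Oasl2 to Oasl1 counts was -0.25, -0.42 and -0.07 in PM samples and 0.69, 0.09 and 0.62 in PH samples. Every PM sample had a lower ratio than every PH sample, and the means differed by -0.72. The exact two-sided permutation test gave p = 0.10, the smallest that 3 against 3 samples allow, so it cannot pass 0.05.

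Oas2 and Oas3, the larger synthetases, in which the synthetase unit is repeated, followed Oasl2. Oas3, known to bind long double-stranded RNA, was at 4.20, 3.76 and 5.95 CPM with PM and 18.3, 13.9 and 23.4 CPM with PH. Its log2 fold change was -2.01 ± 0.22 (adjusted p = 0.00282 by edgeR). Oas2 was at 2.29, 1.76 and 3.23 CPM with PM and 12.4, 8.12 and 13.1 CPM with PH, with a log2 fold change of -2.21 ± 0.24 (adjusted p = 0.00282). For both genes the groups were far apart, and replicate 4 was the highest and replicate 3 the lowest within each group.

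**Figure D2:**
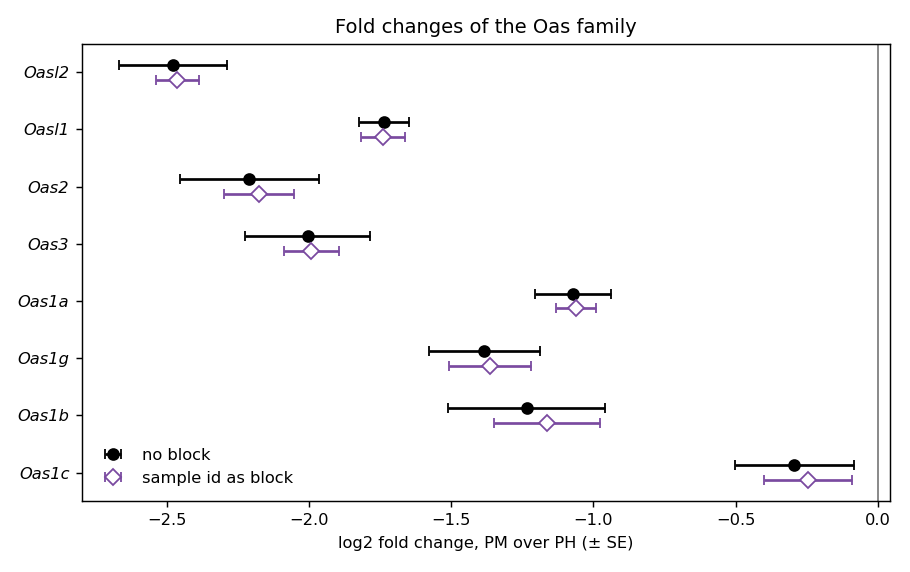
Log2 fold change of PM over PH (x axis, bars are ± SE) for the 8 Oas genes, from the edgeR fit without a block (filled circles) and with the sample id as a block (open diamonds). The values run from -2.48 for Oasl2 to -0.29 for Oas1c, and the 2 fits give nearly the same values with shorter bars under the block.

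The Oas1 genes, which hold a single synthetase unit, had smaller differences. Oas1a, an active enzyme, was at 17.4, 15.1 and 17.1 CPM in PM samples and 38.5, 26.9 and 37.8 CPM in PH samples. Its log2 fold change was -1.07 ± 0.13 (adjusted p = 0.00451 by edgeR). Oas1g, the other active enzyme of this group, was at 2.34, 1.83 and 2.80 CPM with PM and 5.83, 5.18 and 7.02 CPM with PH, with a log2 fold change of -1.38 ± 0.19 (adjusted p = 0.00822). The groups did not overlap for either gene. Oas1g had adjusted p = 0.0560 without PH replicate 4. These 2 genes are close in sequence: 57.6% of the 50-base words of Oas1a transcripts and 45.7% of those of Oas1g also occur in another gene, mainly in each other (GENCODE M21 transcripts, with 50 chosen because no read length is stated). Their single values are therefore uncertain. Summed as 1 gene they were at 19.7, 16.9 and 19.9 CPM with PM and 44.3, 32.1 and 44.8 CPM with PH, with a log2 fold change of -1.11 ± 0.13 (adjusted p = 0.00349).

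Oas1b and Oas1c, the neighbours whose proteins lack synthetase activity, did not pass the test. Oas1b was at 1.48, 1.5 and 2.16 CPM with PM and 5.34, 2.5 and 4.08 CPM with PH. Every PM sample was below every PH sample, but the PH samples were spread widely. The log2 fold change of -1.23 ± 0.28 did not pass (adjusted p = 0.0615 by edgeR) and passed with the sample id as a block, at -1.16 ± 0.19 (adjusted p = 2.0e-05). Without PH replicate 3 it was -1.43 (adjusted p = 0.0346). Without any other single sample it did not pass (adjusted p from 0.0888 to 0.212 by edgeR). Without both PM replicate 1 and PH replicate 3, a choice made after seeing the data, it was -1.34 (adjusted p = 0.0184). Over these 50-base words 2.98% of Oas1b sequence was shared with other genes. Oas1c was at 3.06, 2.5 and 3.80 CPM with PM and 4.39, 2.94 and 3.96 CPM with PH, so the groups overlapped. Its log2 fold change was -0.29 ± 0.21, with a 95% interval from -0.77 to 0.18 (adjusted p = 0.621, or 0.335 with the block). This interval runs from a fall to a small rise, so no difference was detectable at this depth and spread. Exons of Oas1c overlap the gene Gm43069 over 9.73% of their length, and 15.1% of its 50-base words occur in other genes.

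The pair was compared within each library, a ratio chosen after its values were seen. The log2 ratio of Oas1b to Oas1c counts was -1.01, -0.71 and -0.80 in PM samples and 0.28, -0.22 and 0.04 in PH samples. Every PM sample was again below every PH sample. The means differed by -0.87, and the exact permutation test gave p = 0.10, again the smallest possible.

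Levels of different genes can be compared only per length of transcript, as CPM per kilobase of exon (RPKM). On this scale Oas1a led the family in PM cells at 8.77 ± 0.669 RPKM, ahead of Oasl1 at 4.35 ± 0.149 and Oasl2 at 2.60 ± 0.402 (SD, n = 3). Oas1c (1.36 ± 0.285), Oas1g (1.17 ± 0.244), Oas3 (0.983 ± 0.246), Oas1b (0.930 ± 0.209) and Oas2 (0.613 ± 0.188) followed. Of these 5, the sample values of neighbours in the order overlapped. Within each of the 3 PM samples, though, Oas1c was above Oas1g, Oas1g above Oas3 and Oas1b above Oas2. In PH cells Oas1a was at 18.3 ± 3.44 RPKM, followed by Oasl1 at 14.5 ± 1.19 and Oasl2 at 14.4 ± 3.55, and the sample values of these 3 genes overlapped. Within each of the 3 PH samples Oas1a was nevertheless above both Oasl1 and Oasl2. Then came Oas3 (3.93 ± 1.01), Oas1g (3.04 ± 0.471), Oas2 (2.83 ± 0.680), Oas1b (2.16 ± 0.771) and Oas1c (1.64 ± 0.326), again with overlapping sample values between neighbours. Even so, Oas3 was above Oas1g, Oas2 above Oas1b and Oas1b above Oas1c in each of the 3 PH samples. Oas1c was thus the lowest member in PH cells and the fourth in PM cells.

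The summed level of the 8 genes was 21.1, 18.5 and 22.9 RPKM in PM samples and 64.5, 48.8 and 68.8 RPKM in PH samples. The make-up of that sum differed as well. Oas1a held 42.3% ± 2.24 of it with PM and 30.0% ± 1.44 with PH (SD, n = 3). Oasl2 held 12.5% ± 0.612 with PM and 23.5% ± 1.93 with PH. For both genes, and for Oas1c at 6.50% ± 0.687 with PM and 2.70% ± 0.242 with PH, the shares of the 2 groups did not overlap. The shares of Oas2 (2.91% ± 0.595 with PM and 4.62% ± 0.368 with PH) did not overlap either. Nor did those of Oas3 (4.69% ± 0.719 with PM and 6.42% ± 0.683 with PH). Oasl1 held 21.1% ± 1.58 with PM and 24.2% ± 3.73 with PH, shares that did overlap, as did those of Oas1b and Oas1g. Shares of one sum depend on each other, and no test was made of them. The remaining Oas1 paralogs Oas1d, Oas1e, Oas1f and Oas1h had 0 to 3 counts together in any sample and were not tested.

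**Figure D3:**
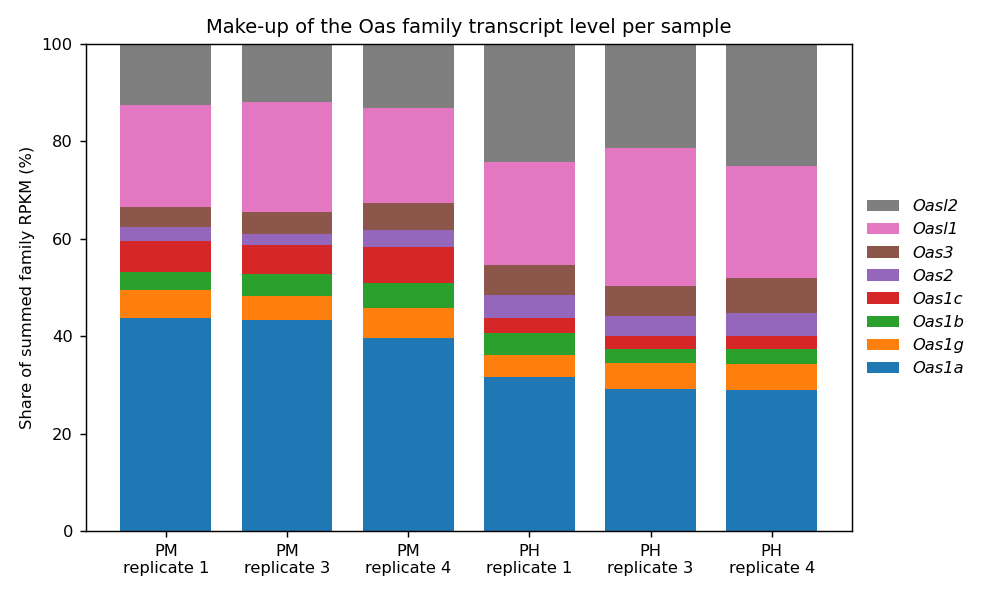
Share of each Oas gene in the summed RPKM of the 8 genes (y axis, percent, from 0 to 100), with 1 bar for each sample, PM left and PH right. Oas1a is the largest share in every bar, at 42.3% on average with PM and 30.0% with PH, and Oasl2 takes 12.5% and 23.5%.

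For most members the same id was lowest in both groups. Replicate 3 had the lowest CPM within the PM group for 7 of the 8 members and within the PH group also for 7 of the 8. Oas1b in PM samples and Oasl1 in PH samples, where replicate 1 was lowest by a small margin, were the exceptions. All 8 members were lower with PM in each of the 3 ids. The share of all genes with these patterns was not counted. The members also resemble one another over the samples, so they are not separate observations of these patterns. In the order of ids 1, 3 and 4, Oas1b had log2 differences of -1.80, -0.71 and -0.90, the widest range of the members. Oas1c had -0.51, -0.23 and -0.06, and Oasl1 had -1.62, -1.72 and -1.82.

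Genes of oligoadenylate turnover did not pass the test. They were Pde12, Akap7 and Enpp1, whose products can break down oligoadenylates. All 3 were tested, and 0 passed in either direction with or without the block. Their log2 fold changes lay between -0.24 and 0.13, with a median of 0.12 and adjusted p of at least 0.625 by edgeR.

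Other sensors of double-stranded RNA were lower with PM in part. Of 9 genes of RNA sensing and editing, 6 fell, none rose, and the median was -0.62 on the log2 scale. Over all genes tested 1.64% fell and 0.702% rose. Zbp1, a sensor of Z-form nucleic acid, was at 11.5, 11.9 and 11.9 CPM with PM and 44.2, 38.0 and 41.0 CPM with PH (log2 fold change -1.81 ± 0.08, adjusted p = 6.4e-05 by edgeR). The helicase sensors Ddx58 (RIG-I, -1.20 ± 0.17), Dhx58 (LGP2, -1.01 ± 0.13) and Ifih1 (MDA5, -0.82 ± 0.10) fell as well. So did the RNA-activated kinase gene Eif2ak2 (-0.62 ± 0.09) and the RNA-editing enzyme gene Adar (-0.46 ± 0.06). The other 3 genes, the adaptors Mavs and Ticam1 and the receptor Tlr3, lay between -0.44 and 0.08 and did not pass. Ddx58 had adjusted p = 0.0538 without PM replicate 3 and 0.0598 without PH replicate 4, and Eif2ak2 had 0.0516 without PH replicate 4.

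Of 7 genes of the cGAS-STING pathway, which senses DNA through an enzyme of the same fold as the synthetases, 1 fell and 0 rose (4 fell with the block), with a median of -0.25. Over all genes tested 1.64% fell, and 8.27% with the block. The gene that fell without the block was Trex1, a DNA exonuclease, at 44.5, 45.5 and 44.0 CPM with PM and 70.5, 72.1 and 72.3 CPM with PH (log2 fold change -0.68 ± 0.05, adjusted p = 6.2e-04 by edgeR). The 2 groups of Trex1 values were tight and far apart. Without PM replicate 1, 2 genes of this list fell.

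Of the interferon signalling list, 10 of 13 genes were tested, and 3 fell and 0 rose (6 fell with the block, 6 without PM replicate 1, and 2 without PM replicate 4 or without PH replicate 3), with a median of -0.37. The shares of all genes tested that fell were 1.64% without the block and 8.27% with it. Irf7, the transcription factor whose translation Oasl1 restrains, was at 7.4, 5.36 and 7.08 CPM with PM and 31.9, 23.9 and 36.3 CPM with PH. Its log2 fold change of -2.23 ± 0.17 (adjusted p = 5.6e-04 by edgeR) lay between those of Oasl2 and Oas2. Irf9 and Stat2 of ISGF3 differed less, with log2 fold changes of -0.53 ± 0.07 for Irf9, which fell, and -0.45 ± 0.10 for Stat2, which did not pass (adjusted p = 0.0646) but did with the block (8.8e-09). Irf1, a related factor, changed by -0.54 ± 0.09, with adjusted p = 0.106 without PM replicate 4 and 0.0671 without PH replicate 3. The other 6 tested genes lay between -0.58 and -0.02. Among them the receptor chains Ifnar1 and Ifnar2 and the kinases Jak1 and Tyk2 did not pass with or without the block. The interferon genes of this list, Ifnb1, Ifna2 and Ifna4, were at the floor of detection after the overnight culture. Ifnb1 had 0, 2 and 3 counts in PM samples and 4, 1 and 0 counts in PH samples. Ifna2 had none, and Ifna4 had 1 count, in PM replicate 3. For these genes no difference could be detected at this depth, and other interferon genes were not in the list.

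**Figure D4:**
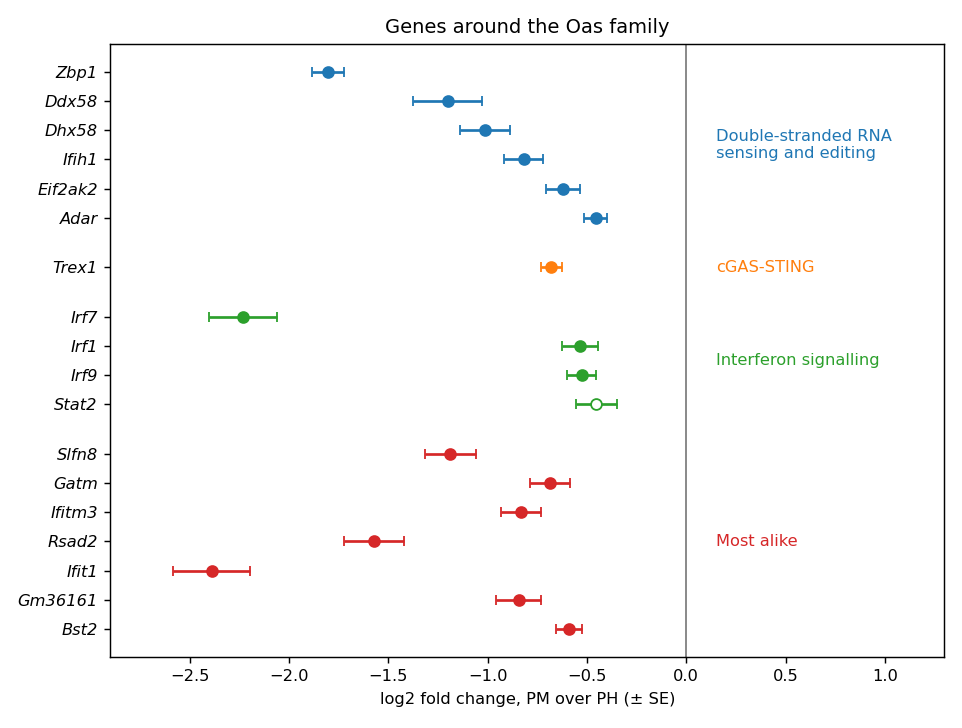
Log2 fold change of PM over PH (x axis, bars are ± SE) for the named genes around the Oas family, grouped by list, with filled circles for an adjusted p below 0.05 by edgeR and an open circle for Stat2 (0.0646). The values run from -2.39 for Ifit1 to -0.45 for Stat2, but apart from Stat2 the genes were drawn because they passed or followed the family. The other tested list genes, which did not pass, are not drawn and lay between -0.58 (Usp18) and 0.13 (Pde12). Of these, Mavs (0.08), Ticam1 (0.01), Irf3 (0.10), Pde12 (0.13) and Akap7 (0.12) were positive and the rest negative. Dhx58, also among the genes most alike, is drawn once.

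The genes whose levels followed the family most closely were found by correlating the log2 CPM of 10046 genes with the mean centred profile of the 8 members over the 6 samples. The 8 most alike were Slfn8, Gatm, Ifitm3, Rsad2, Ifit1, Gm36161, Dhx58 and Bst2, with Pearson r from 0.998 for Slfn8 to 0.994 for Bst2. Rsad2 (viperin), Ifit1, Ifitm3 and Bst2 (tetherin) encode antiviral proteins, and Gatm a creatine-synthesis enzyme. All points share the split into PM and PH, which by itself gives a high r to any gene that differs between them. Rsad2 averaged 18.3 CPM with PM and 54.3 CPM with PH (log2 fold change -1.57 ± 0.15), and Ifit1 4.34 CPM with PM and 22.7 CPM with PH (-2.39 ± 0.19). Slfn8 changed by -1.19 ± 0.13, Ifitm3 by -0.83 ± 0.10, Gm36161 by -0.85 ± 0.11, Gatm by -0.69 ± 0.10 and Bst2 by -0.59 ± 0.07, each with an adjusted p below the threshold by edgeR. Without PH replicate 4, Gatm (0.0617) and Gm36161 (0.0522) did not pass. The r within the groups is fixed in part by the same choice and is not given. Each member is itself in the mean profile, which raises its own r with it, and that r was lowest for Oas1c, at 0.701.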

How the data were processed

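The authors deposited 1 table of raw counts of reads in each gene, with exon lengths. The build GRCm38 and the tools Trimmomatic, STAR 2.5.3a and featureCounts 1.6.4 are named in the submitters' processing notes. No source used here gives the strand setting, the annotation release or the handling of multi-mapping reads. Per the labels' protocols, libraries were made from polyadenylated RNA with a strand-marking kit. Each of the 6 count columns served as 1 sample, and all were used.

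The test was that of edgeR 4.0.16 in R 4.3.3, PM against PH without a covariate, after filterByExpr with a minimum count of 10 and TMM scaling. The robust quasi-likelihood test was used, with Benjamini-Hochberg adjustment over 14382 genes and a threshold of 0.05. SE values derive from the F value of the test. Log2 CPM values used a prior count of 2. The script was tested on simulated counts.

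Nothing in the labels ties a sample id to an animal or a culture, so the p-values cover the spread of these samples alone, which may be technical. Deviations of all tested genes from the group means correlated at 0.44, 0.32 and 0.24 between PM and PH samples of ids 1, 3 and 4. Between samples of different ids the values were -0.35 to 0.07. Deviations within a group cancel, so high values for matching ids come with low ones elsewhere. On these values the fit with the id as a block, an alternative to the unpaired test, is given where it changes a call. This pairing is read from the counts, as the labels do not state it. No 2 columns agreed within sampling noise (chi-square per degree of freedom at least 5.10 for each pair).

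The members, lists and tests were chosen with earlier results of these data known. Some pathway genes are not reported here and are left out of the list counts. The genes named by rule were the members, the list genes that passed, Irf7, Stat2 and Irf9, and the 8 genes most alike with a mean of at least 5 CPM. Other list and marker genes were named after their values were seen, to show what did not pass or how levels varied. Promoter sequences are from RefSeq (GRCm38.p6). Alternatives included DESeq2 1.42.0, other scalings and filters, the block and leaving out samples.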

Additional observations from a re-analysis of the deposited data

How the results depend on the processing

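Across 137 member values under the alternatives, all kept their direction and 128 their side of the threshold. The exceptions were Oas1g, which did not pass without PH replicate 4, and Oas1b, which passed in 8 of its 17 alternatives (adjusted p 1.0e-06 to 0.212). Oasl2 (-2.66 to -2.33), Oasl1 (-1.80 to -1.66), Oas2 (-2.51 to -2.01), Oas3 (-2.25 to -1.79) and Oas1a (-1.25 to -1.0) passed in every alternative run, and Oas1c (-0.48 to -0.12) in none. The number of members lower with PM was 5 without PH replicate 4 and 6 or 7 otherwise.

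The count over all genes moved more. It was 337 as reported, 846 with no filter on low counts, 574 with DESeq2 and 2197 under the replicate block on sample ids. With the block and without id 1, 3 or 4 it was 2145, 1580 or 1529. Without 1 sample it was 142 to 417, at 208 without PH replicate 3, 174 without PM replicate 3, 147 without PM replicate 4 and 142 without PH replicate 4. Without both PM replicate 1 and PH replicate 3, a choice made after seeing the data, it was 629. The other scalings gave 321 to 339, with the median of all genes at 0.00 to 0.03 and the members' median at -1.57 to -1.53. The cause of these shifts was not tested. The fits that left samples out also had fewer samples.

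Of the lists, 1 gene of the cGAS-STING pathway and 3 of interferon signalling were lower as reported, against 4 and 6 with the block, 2 and 6 with no filter, and 2 and 5 with DESeq2. The Oasl2 to Oasl1 ratio differed by -0.90 to -0.61 without 1 sample and, as paired differences, by -0.72 with an exact p of 0.25, the smallest possible for 3 pairs. Low counts limit Oas1b, Oas1c, Oas1g and Oas2 most.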
